A study of Mus musculus with 5 samples.

Results

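Oxidative phosphorylation is the part of mitochondrial metabolism in which electrons pass along the respiratory chain and the proton gradient they build drives ATP synthesis. Its nuclear-encoded genes were selected by symbol from whole-lung arrays of 5 mouse strains, as every probe set whose only gene symbol began with Nduf followed by a, b, c, s or v, with Uqcr, with Atp5 or with Cox4 to Cox8, or was Sdha, Sdhb, Sdhc or Sdhd. This gave 179 of the 34958 probe sets with a single symbol, standing for 90 of 18194 genes. Each strain had 1 array: C57 (C57BL/6J), 4B(+/+) and 4B(-/-), which are wild type and knockout for the phosphodiesterase PDE4B, and 4D(+/+) and 4D(-/-), the same for PDE4D. PDE4B and PDE4D break down cyclic AMP. The 4 lines other than C57 began on a mix of C57BL/6 and 129/Ola and had at least 11 generations of backcrossing to C57BL/6J. All mice were female and naive, with no elastase given, and the sources used here do not give their age. RNA of 3 of 5 lungs was mixed for each strain, so an array is 1 pool and neither animals nor arrays can be compared within a strain. No difference below therefore has a replicate check or a p-value.

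Complex I (Nduf genes) takes electrons from NADH and complex II (Sdh genes) from succinate. Complex III (Uqcr genes) passes them from ubiquinone to cytochrome c, complex IV (Cox genes) from cytochrome c to oxygen, and complex V (Atp5 genes) makes ATP. Several subunits of complex IV exist as tissue isoforms, with one form made nearly everywhere and another made mainly in striated muscle and brown fat, and lung has its own form of the Cox4 subunit. The symbols also took in the Ndufaf genes, whose products help to assemble complex I and are not part of it, and Ndufa4, whose product is now counted as a subunit of complex IV and is treated here with that complex.

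Values are intensities after RMA, a method that corrects background and gives all arrays the same distribution, and the 5 array medians were 45.4 to 46.6. Each gene was represented by its brightest probe set, and 87 of the 90 genes reached the floor, an intensity of 64 in at least 1 array, as did 11500 of all genes. The lung epithelium markers were at or over the floor in every array, 8 of 8, with summed intensities of 109100 to 115300. The targeted genes were still read, Pde4b at 457 in the 4B(-/-) pool against 438 to 558 elsewhere and Pde4d at 386 in the 4D(-/-) pool against 456 to 523. The sources used here do not place the deletions relative to these probes, so the values do not check the labels.

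Most oxidative phosphorylation genes stood in a similar order of strains. The 4D(+/+) lung had the highest value for 73 of the 87 genes (83.9%), against 14.9% of all genes. The lowest value fell in 4D(-/-) for 63 genes and in C57 for 17, together 92.0%, against 48.8% of all genes. For 74 genes (85.1%) both C57 and 4D(-/-) lay under each of the other 3 arrays, which was so for 22.4% of all genes. By complex this share was lowest in complex IV, at 11 of 17 genes (64.7%). Measured from each gene's mean over the 5 arrays, the median log2 deviation of the members was 0.31 in 4D(+/+), 0.12 in 4B(-/-), 0.02 in 4B(+/+), -0.20 in C57 and -0.25 in 4D(-/-). Over all genes the same medians lay between -0.01 and 0.02. In whole lung, fewer cells of a type and less RNA per cell cannot be told apart.

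**Figure D1:**
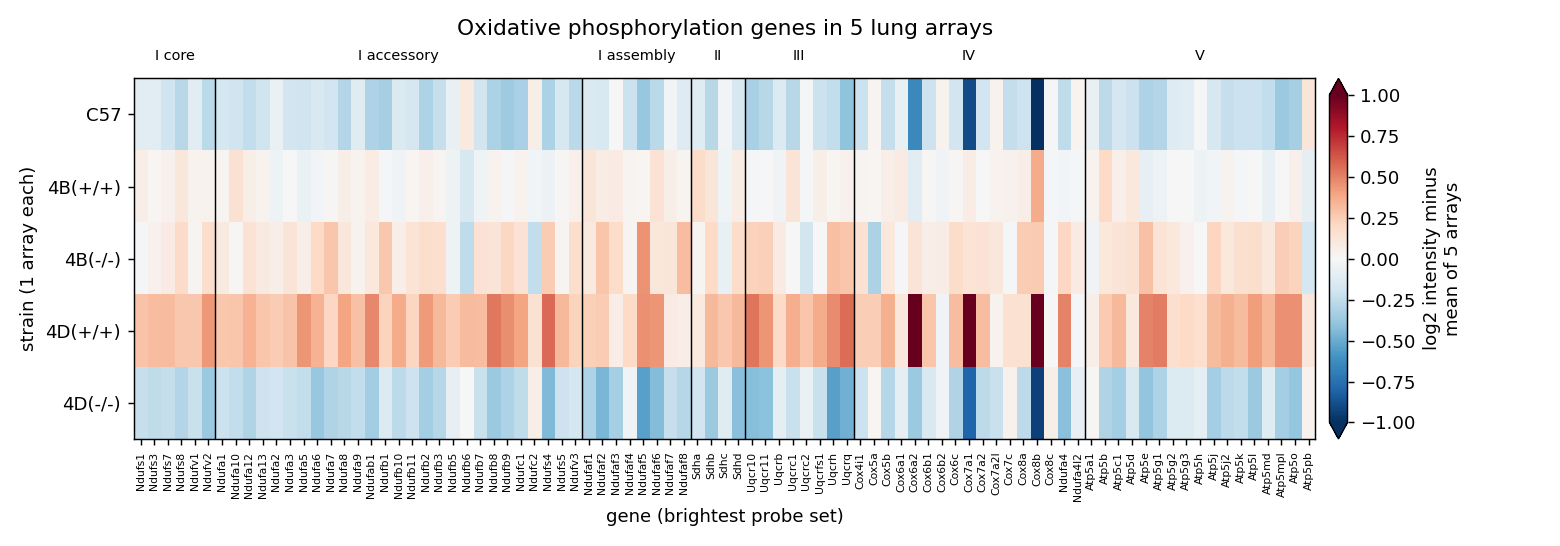
Each column is 1 of the 87 oxidative phosphorylation genes over the floor, grouped by complex, and each row is 1 array; colour gives the log2 intensity minus the gene's mean over the 5 arrays, and the colour scale ends at -1 and 1. The 4D(+/+) row is the highest for 73 genes, and the C57 and 4D(-/-) rows both lie under the other 3 for 74 genes.

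The PDE4D comparison held the widest shift. In 4D(-/-), 38 of 87 genes were at least 1.5-fold lower than in 4D(+/+), where 4.53% of all 11500 genes were, and 0 were at least 1.5-fold higher, where 1.1% of all genes were. Of the 87 genes 85 lay below 0, 1 above and 1 at it, with a median log2 difference of -0.56 against 0.00 for all genes. Among genes reaching a log2 intensity of 10, 34 of 72 members were 1.5-fold lower, against 6.52% of all 2193 such genes. The count rests on the 4D(+/+) array. With C57 as the reference 0 genes were past 1.5-fold in 4D(-/-), where 1.37% of all genes were higher and 0.791% lower, and the median was -0.05. Against the mean of C57 and 4B(+/+), a reference added after the data were seen, 0 genes were past it and the median was -0.16.

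Among the complexes, complex III was lower by the most in 4D(-/-), with 6 of its 8 selected genes past 1.5-fold and a median of -0.72. The selection by symbol left out its subunit cytochrome c1 (Cyc1), which is described with the electron carriers. Uqcrq, a small subunit of the ubiquinone-binding part, read 1445 in C57, 1973 in 4B(+/+), 2320 in 4B(-/-), 2818 in 4D(+/+) and 1368 in 4D(-/-), 2.06-fold lower in 4D(-/-) than in its wild type. Uqcrh, the hinge protein that aids contact with cytochrome c, read 3007, 3620, 4410, 4954 and 2449 in the same order of strains, 2.02-fold lower. For both genes 4D(-/-) was the lowest array, C57 the next and 4D(+/+) the highest. Uqcr10 (1.95-fold), Uqcr11 (1.80-fold), the Rieske iron-sulfur protein Uqcrfs1 (1.51-fold) and the core protein Uqcrc1 (1.51-fold) were also lower. Uqcrb varied least in the complex, from 10320 in C57 to 12920 in 4D(+/+), and with Uqcrc2 it stayed within 1.5-fold by its brightest probe set. Another probe set of each gene was past 1.5-fold lower in 4D(-/-), at a log2 difference of -0.61 for Uqcrb and -0.66 for Uqcrc2.

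In complex I, 12 of 27 accessory subunits, 1 of 6 core subunits and 3 of 8 assembly factors were at least 1.5-fold lower in 4D(-/-), with medians of -0.53, -0.56 and -0.47. Ndufs4, an accessory subunit whose loss causes Leigh syndrome, read 481 in C57, 575 in 4B(+/+), 716 in 4B(-/-), 887 in 4D(+/+) and 441 in 4D(-/-), 2.01-fold lower in the knockout. The core subunits, which carry the cofactors of electron transfer, lay close together by their brightest probe sets. Ndufs1, Ndufs3, Ndufs7, Ndufs8 and Ndufv1 were 1.41-fold to 1.48-fold lower, just inside the threshold, and Ndufv2 was 1.76-fold lower. All 6 were highest in 4D(+/+) and lowest in 4D(-/-). Ndufaf5, an assembly factor that modifies the Ndufs7 protein, read 109 in C57, 144 in 4B(+/+), 193 in 4B(-/-), 195 in 4D(+/+) and 97.3 in 4D(-/-), so 4B(-/-) nearly matched the highest array. The members with the smallest range over the 5 arrays were Ndufv1 (1.41-fold) among core subunits, Ndufb5 (1.26-fold) among accessory subunits and Ndufaf7 (1.28-fold) among assembly factors, by their brightest probe sets. A second Ndufb5 probe set gave a log2 difference of -0.73 for 4D(-/-) minus 4D(+/+), against -0.33, and 2 others of Ndufv1 gave -0.58 and -0.66, against -0.49. Another Ndufs7 probe set was past 1.5-fold, at -0.78 against -0.56. Other Ndufs8 probe sets gave -0.69, -0.67 and -0.60, past 1.5-fold, and -0.56 and -0.02, inside it. The number of core subunits past 1.5-fold thus depended on the probe set chosen.

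Complex II and complex V moved with the rest. Of the 4 succinate dehydrogenase genes Sdhb, the iron-sulfur subunit, was 1.61-fold and the membrane anchor Sdhd 1.67-fold lower in 4D(-/-), whereas Sdhc was 1.31-fold and the flavoprotein Sdha 1.22-fold lower. By its brightest probe set Sdha varied least, and was the single complex II gene highest in 4B(+/+), at 2449. Another Sdha probe set was highest in 4D(+/+), at 1858 against 1647 in 4B(+/+). That probe set gave a log2 difference of -0.50 for 4D(-/-) minus 4D(+/+), against -0.29 for the brightest. Of 17 ATP synthase genes 8 were past 1.5-fold lower (median -0.56). Atp5e, the epsilon subunit of the central stalk, was the most variable of them, at 2303 in C57, 2702 in 4B(+/+), 3488 in 4B(-/-), 4016 in 4D(+/+) and 2170 in 4D(-/-). The catalytic beta subunit Atp5b was 1.48-fold lower, and Atp5a1, the alpha subunit, varied least, from 4377 in C57 to 4788 in 4D(+/+).

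The wild-type lines were also set against C57. In 4D(+/+), 29 of 87 genes were at least 1.5-fold higher than in C57, where 4.25% of all genes were, and 0 were lower, where 1.24% were. The median was 0.49, and 83 genes lay above 0. Again complex III led, with 6 of 8 genes past the threshold and a median of 0.68, and the 3 muscle isoforms described below had the largest folds, followed by Uqcrq (1.95-fold), Ndufs4 (1.85-fold) and Uqcr10 (1.81-fold). This comparison and the PDE4D knockout comparison share the 4D(+/+) array. With 4B(+/+) in place of C57, a reference added after the data were seen, 4 genes were past 1.5-fold, namely Ndufs4, Cox6a2, Cox7a1 and Cox8b, where 1.57% of all genes were higher and 0.348% lower, and the median was 0.29. In 4B(+/+), 2 of 87 genes, Cox7a1 and Cox8b, were 1.5-fold higher than in C57, where 2.23% of all genes were, and 0 were lower, where 1.33% were. The median was still 0.23, with 76 genes above 0 and 10 below.

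The PDE4B comparison gave 0 genes past 1.5-fold in either direction, where 0.383% of all genes were higher and 0.93% lower. Small differences leaned one way: 64 genes lay above 0 in 4B(-/-), 20 below and 3 at it, with a median of 0.10 against 0.01 for all genes. The lists of cytosolic ribosomal and proteasome genes, described at the end, leaned the same way, with medians of 0.11 and 0.08. Ndufaf5 (1.34-fold higher), Atp5e (1.29-fold higher) and Cox5a (1.27-fold lower), named after their values were seen, had the 3 largest differences. Of these Ndufaf5 is dim, and its fold is poorly determined. Of the complexes, complex III again stood furthest out, with a median of 0.17, and complexes II and I core were nearest to 0, at 0.03 each. Against C57 8 genes were 1.5-fold higher in 4B(-/-), where 2.53% of all genes were higher and 3.57% lower, and the median was 0.34. The median thus had opposite signs in the 2 knockout comparisons, and 63 genes lay above 0 in the PDE4B and below 0 in the PDE4D comparison; with 1 array per strain this difference between knockouts was not tested.

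**Figure D2:**
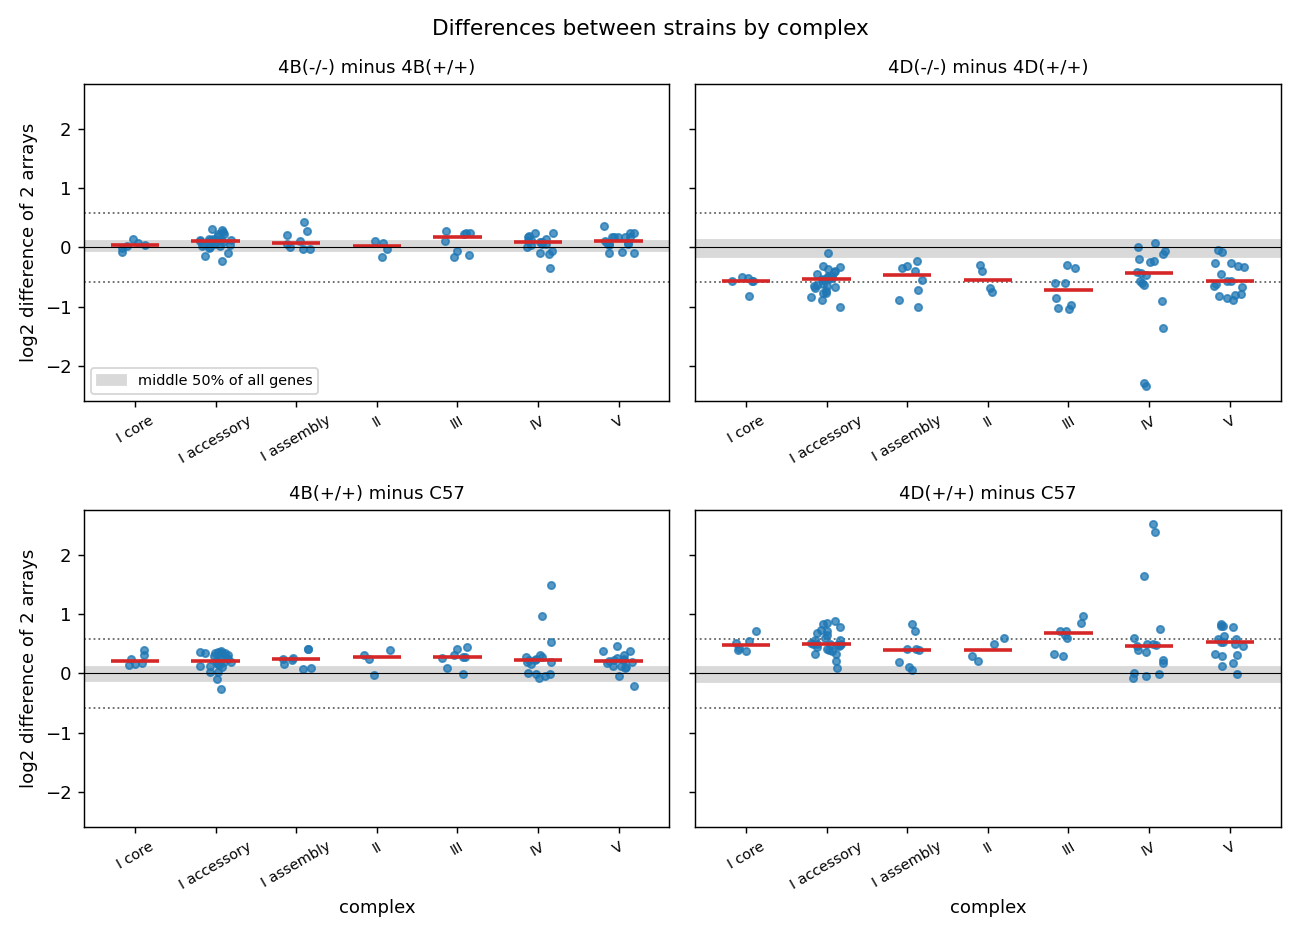
Points are the 87 genes by complex, red bars are medians, the grey band spans the quartiles of all 11500 genes and dotted lines mark 1.5-fold; the y axis is the log2 difference of 2 arrays. Nearly all points lie below 0 for 4D(-/-) minus 4D(+/+) (85 of 87) and above 0 for 4D(+/+) minus C57 (83 of 87), and 0 points pass 1.5-fold for 4B(-/-) minus 4B(+/+).

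Of 17 complex IV genes 6 were at least 1.5-fold lower in 4D(-/-) than in 4D(+/+), where 4.53% of all genes were. Their median of -0.43 was the nearest to 0 of any complex. Cox6a2, Cox7a1 and Cox8b, the muscle isoforms of complex IV, were among the 6 and spread far more than their partners. Cox8b, the muscle and brown fat form of subunit 8, read 450 in C57, 1258 in 4B(+/+), 1166 in 4B(-/-), 2571 in 4D(+/+) and 508 in 4D(-/-), a range of 5.72-fold. Its partner Cox8a read 1952, 2357, 2688, 2502 and 1880, a range of 1.43-fold with the highest value in 4B(-/-). C57 and 4D(-/-) were low for both genes, and only Cox8b set 4D(+/+) far above the rest. Cox7a1, the muscle form of subunit 7a, read 302 in C57, 591 in 4B(+/+), 617 in 4B(-/-), 1574 in 4D(+/+) and 323 in 4D(-/-), and was 4.87-fold lower in 4D(-/-) than in 4D(+/+). Its partner Cox7a2 was 1.48-fold lower, at 5675 against 8423, and Cox7a2l, a relative that joins complexes III and IV, was 1.19-fold lower. Cox6a2, the muscle form of subunit 6a, read 544, 788, 931, 1699 and 660 in the order of strains above, 2.57-fold lower in 4D(-/-) than in 4D(+/+), while Cox6a1 read 10270 to 11710 in the 5 arrays. These 3 muscle forms were the members in which 1 array, 4D(+/+), stood at least 1.5-fold above all 4 others. Without them 35 of 84 genes were still past 1.5-fold lower in 4D(-/-) and 26 higher in 4D(+/+) than in C57, with medians of -0.55 and 0.49. Against C57, Cox6a2, Cox7a1 and Cox8b were 0.28, 0.10 and 0.18 higher in 4D(-/-) on the log2 scale. For 4B(-/-) minus 4B(+/+) these forms stood at 0.24, 0.06 and -0.11. The skeletal muscle markers described below had medians of 0.89 and -0.93 in these comparisons in turn, so the isoforms did not follow them there.

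**Figure D3:**
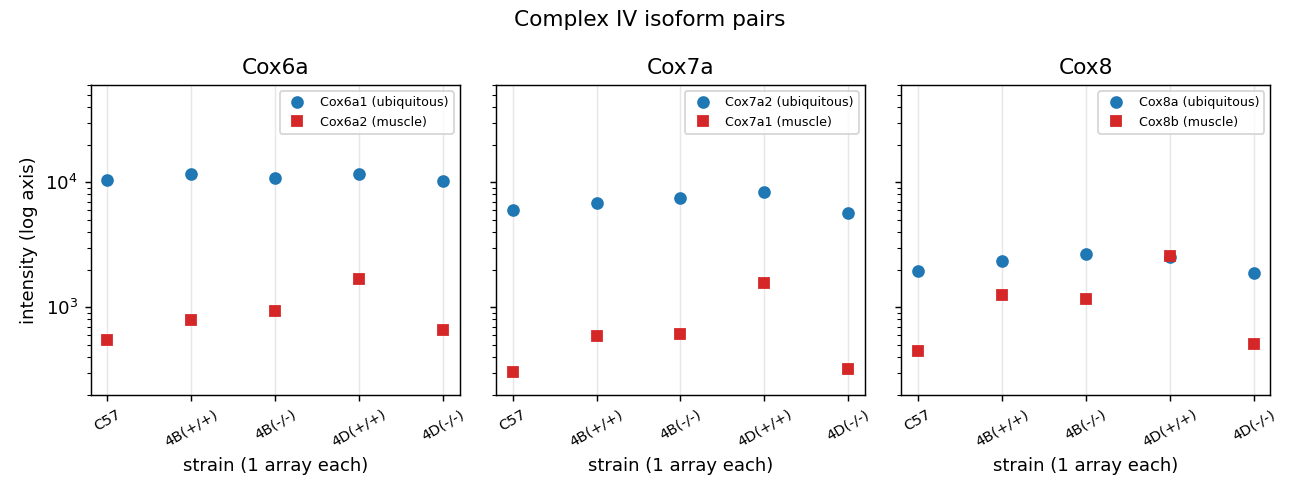
Intensity of 3 complex IV isoform pairs in the 5 arrays on a log axis, circles for the ubiquitous and squares for the muscle form. The muscle forms are highest in 4D(+/+), at 1699, 1574 and 2571, and lowest in C57, at 544, 302 and 450, while the ubiquitous forms span 1.14-fold, 1.48-fold and 1.43-fold.

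The sequences before the start sites of 2 isoform genes are shown because, of the 5 genes of the Cox6a, Cox7a and Cox8 pairs with a promoter entry, these are the ones in which a searched motif was found; Cox6a1 and Cox8b are not partners. They are the 250 bases before the RefSeq start on GRCm38.p6, on the minus strand, at chr5:115348959-115349208 for Cox6a1 and chr7:140900447-140900696 for Cox8b. Capitals mark, in Cox6a1, the letters that NRF1, a regulator of respiratory chain genes, is known to bind and the E-box letters CAGCTG in Cox8b, of the kind bound by muscle regulators.
Cox6a1: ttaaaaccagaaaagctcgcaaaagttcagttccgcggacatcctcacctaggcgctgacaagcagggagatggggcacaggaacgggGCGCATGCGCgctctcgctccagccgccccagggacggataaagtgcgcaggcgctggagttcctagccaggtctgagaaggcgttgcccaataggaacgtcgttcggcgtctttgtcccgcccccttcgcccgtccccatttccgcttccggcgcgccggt
Cox8b: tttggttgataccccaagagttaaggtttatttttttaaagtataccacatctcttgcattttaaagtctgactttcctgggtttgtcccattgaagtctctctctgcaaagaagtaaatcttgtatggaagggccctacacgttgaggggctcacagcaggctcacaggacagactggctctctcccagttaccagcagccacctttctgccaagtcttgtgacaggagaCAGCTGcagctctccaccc
The windows of Cox8a, Cox7a2 and Cox7a1 held none of the motifs searched, so the isoform pairs show no shared contrast in these letters. Of the 90 genes 74 had an entry in the promoter table, and Cox6a2 had none. Searched on both strands in these windows, the NRF1 letters in capitals above were found in 4 of 74 members (5.41%), namely Atp5g2, Atp5k, Cox6a1 and Ndufaf4, against 0.781% of all 27025 promoters and 1.62% of those of 9272 genes over the floor. The E-box letters were in 8.11% of members, 12.8% of all promoters and 11.7% of those of genes over the floor, and the other 5 of the 6 members with them were Atp5b, Ndufa8, Ndufb10, Ndufs5 and Ndufv2, which are ordinary subunits. TGACGTCA, the element of the cyclic AMP factor CREB, was in 4.05%, 1.62% and 2.62% of these sets. The ERR letters TCAAGGTCA were in 1.35%, 0.366% and 0.248%, which for members is 1 gene. For MEF2 only a loose pattern was searched, with its outer letters fixed and any base allowed in the middle. It was in 1.35%, 3.23% and 2.73%, which are shares of this loose pattern and not of the MEF2 motif itself. For the ETS letters ACTTCCGG (4.05%, 2.93% and 5.71%) and for TATAAA (9.46%, 13% and 6.95%) the share of members lay between the other two, so its direction depended on the promoters it was set against. A CG pair occurred 1 time before Cox8b and 4 times before Cox7a1, but 11 times before Cox8a, 14 before Cox7a2 and 26 before Cox6a1, with a median of 15 for members and 6 for all promoters. A match describes letters only and is not a bound site.

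The other isoform families had narrower ranges. Ndufa4 was 1.88-fold lower in 4D(-/-) than in 4D(+/+), at 3122 against 5864, while Ndufa4l2, its hypoxia-induced relative, read 129 to 144 in all 5 arrays. Of the 3 genes for the ring-forming c subunit of ATP synthase, Atp5g1 was 1.77-fold lower, at 993 against 1759, and Atp5g2 and Atp5g3 were 1.24-fold and 1.26-fold lower. Cox4i1 was 1.38-fold and Cox6b1 1.35-fold lower. Cox4i2, the lung form of Cox4, stayed under the floor, with 53.2 to 57.9 in the 5 arrays, as did Cox7b2 and the single-symbol probe set of Ndufb4. Cox6b2 and Cox8c, forms known from testis, read 135 to 146 and 131 to 139. Cox7c had a dim probe set, at 49.7 to 65.2, although its product is an ordinary subunit of the complex. It reached the floor in 4D(+/+) alone and is counted among the genes highest there, so its place in that count is no separate evidence. A further 10 probe sets name these families together with another gene, among them brighter ones of Ndufb4, and were outside the selection.

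Probe sets of 1 gene mostly gave the same direction where differences were large. Of the 44 genes with at least 2 probe sets over the floor, 1, Sdhd, had probe sets on both sides of 0 for 4D(-/-) minus 4D(+/+), and 13 had for 4B(-/-) minus 4B(+/+). Counted by probe set, 74 of 151 were 1.5-fold lower in 4D(-/-) and 0 higher, against 724 and 215 of all 18648 probe sets over the floor. Several genes that look stable by their brightest probe set were not stable by another. The brightest Atp5a1 probe set gave a log2 difference of -0.05 for 4D(-/-) minus 4D(+/+) and another, reading 3024 in C57, 4430 in 4B(+/+), 4103 in 4B(-/-), 4531 in 4D(+/+) and 3074 in 4D(-/-), gave -0.56. For Cox5a the same pair of values was -0.23 and -0.75, for Atp5pb -0.08 and -0.62, and for Ndufb6 -0.31 and -0.99. The reverse was seen for Ndufs4, where 2 dimmer probe sets gave -0.50 and -0.54 against -1.01. For 4B(-/-) minus 4B(+/+) the 3 Cox5a probe sets gave -0.34, -0.22 and 0.02, and the 2 of Cox6c gave 0.17 and -0.31.

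The surrounding mitochondrial pathways were described from lists, to be read against the 4.53% of all genes that were 1.5-fold lower in 4D(-/-) than in 4D(+/+); 1 gene of 17 is near that share. Of 15 measured genes of the tricarboxylic acid cycle and pyruvate dehydrogenase, 6 were 1.5-fold lower in 4D(-/-) than in 4D(+/+) and 0 higher (median -0.56), led by the isocitrate dehydrogenase subunits Idh3a (1.91-fold) and Idh3b (1.71-fold), Sucla2 (1.65-fold) and Pdhb (1.63-fold). Of 16 genes of fatty acid oxidation 7 were lower and 0 higher (-0.53), with Etfa (1.76-fold), Echs1 (1.75-fold), Etfb (1.74-fold) and Acadvl (1.71-fold). Among 13 genes of electron carriers and inner membrane exchange 5 were lower and 1 was higher. The lower genes were led by Ucp1, the uncoupling protein of brown fat, at 10.7-fold. They included Coq9 of ubiquinone synthesis (1.98-fold) and cytochrome c1 (Cyc1, 1.65-fold). The higher gene was the transhydrogenase Nnt (2.13-fold). Nnt read 1212 in 4D(-/-), against 509 in C57, 442 in 4B(+/+), 345 in 4B(-/-) and 569 in 4D(+/+). The part of PDE4D loss or of the line's mixed strain origin in this value was not tested. Of 17 other assembly factors 1, Cox19, was lower (-0.20), and of 17 genes of mitochondrial dynamics and import 2 were, the chaperonin Hspe1 (1.87-fold) and Timm50 (1.55-fold), with a median of -0.17. The 16 regulators of mitochondrial biogenesis, among them Ppargc1a, Nrf1, Tfam and Esrra, had 0 members past 1.5-fold and a median of -0.04. Of 16 glycolysis genes 4 were lower (-0.32), the muscle forms Eno3 (4.35-fold) and Pgam2 (3.55-fold), Pfkm (1.99-fold) and Aldoa (1.70-fold).

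In 4B(-/-) against 4B(+/+) several of these lists had medians below 0 while the respiratory chain lay above it. Of the tricarboxylic acid cycle genes 14 of 15 lay below 0, with a median of -0.11, and of the glycolysis genes 13 of 16 (-0.09), against 20 of 87 respiratory chain genes. Fatty acid oxidation had a median of -0.05, and 0 genes of these 3 lists were past 1.5-fold. Ppargc1b, a coactivator of mitochondrial genes, read 91.3 against 137, the 1 member of the biogenesis list past the threshold. Of all genes 0.93% were 1.5-fold lower in this comparison.

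**Figure D4:**
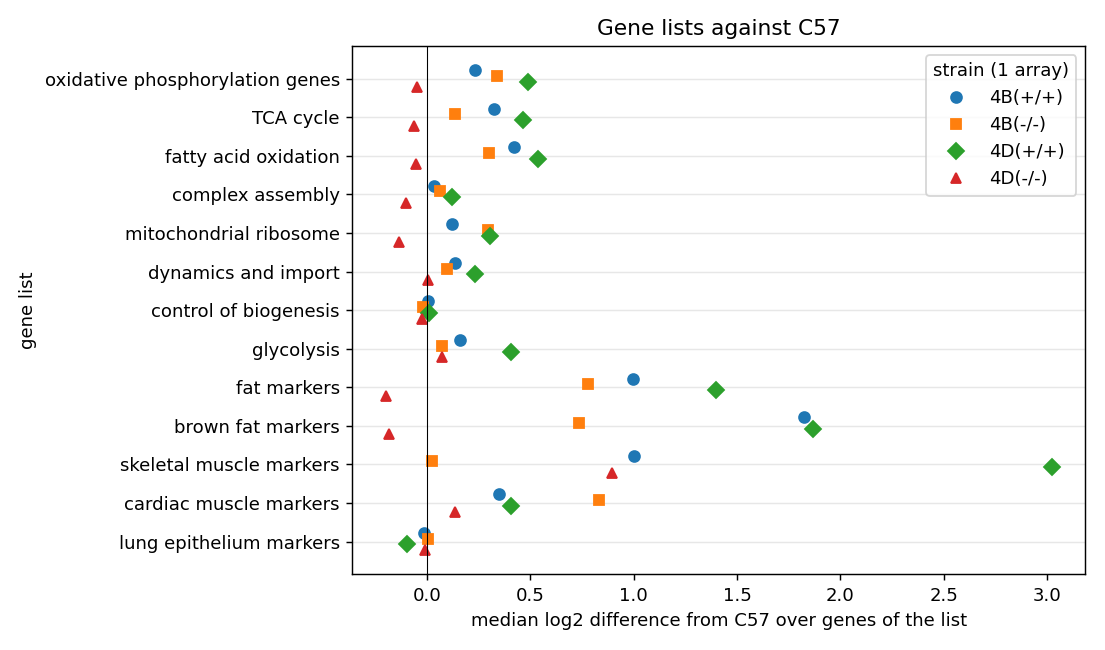
Median log2 difference from C57 over the genes of each list (x axis) for the 4 other arrays. The respiratory chain, tricarboxylic acid cycle and fatty acid oxidation lists have their highest medians in 4D(+/+), at 0.49, 0.46 and 0.54, skeletal muscle markers reach 3.03 there, and the lists of lung epithelium and of biogenesis control stay within 0.10 of 0 in all 4 arrays.

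Markers of muscle and fat, tissues rich in mitochondria, also differed between the arrays, in part in another order of strains. The summed intensity of 17 skeletal muscle markers was 9597 in C57, 17390 in 4B(+/+), 11170 in 4B(-/-), 64450 in 4D(+/+) and 16810 in 4D(-/-), and all 17 were 1.5-fold lower in 4D(-/-) than in 4D(+/+). Of 7 measured brown fat markers 4 reached the floor, with summed intensities of 584, 2093, 940, 2510 and 473 in the same order of strains, and 3 of the 4 were lower in 4D(-/-). The 5 general fat markers over the floor summed to 3760, 8354, 7479, 10250 and 3263, and 4 were lower in 4D(-/-). The 10 cardiac markers ranged from 16190 in C57 to 24000 in 4B(-/-), with 2 lower in 4D(-/-), Sln and Myl2. Myl2 read 18.3 to 67.7 and reached the floor in 4B(-/-) alone. Of 6 alveolar macrophage markers 3 were 1.5-fold higher in 4D(-/-) than in 4D(+/+). Between these arrays 4.53% of all genes were 1.5-fold lower in 4D(-/-) and 1.1% higher. No marker was at 0, but Elovl3, Otop1, Zic1 and Lep were under the floor in every array. Summed markers of both fat lists were lower in C57 and 4D(-/-) than in the other 3 arrays, as were 74 of 87 respiratory chain genes. Both fat sums were highest in 4D(+/+). In 4B(-/-) against 4B(+/+), however, all 4 brown fat markers lay below 0, and general fat markers had 2 above 0 and 3 below. Skeletal muscle markers and respiratory chain genes did not keep the same order of strains. In 4D(-/-) against C57, 14 of 17 skeletal muscle markers were 1.5-fold higher, against 1.37% of all genes. Of 87 respiratory chain genes 68 lay below 0 there. In 4B(-/-) against 4B(+/+), 13 of 17 skeletal muscle markers were 1.5-fold lower, against 0.93% of all genes. Here 64 of 87 respiratory chain genes lay above 0. Cardiac markers went with the respiratory chain genes in that last comparison, with 9 of 10 above 0, 0 below and a median of 0.43. The 2 past 1.5-fold, where 0.383% of all genes were higher, were again Sln and Myl2. The 3' to 5' ratio of the Gapdh control probe sets, a sign of RNA quality, was 1.31 in 4D(+/+), 1.37 in 4B(+/+), 1.57 in 4B(-/-), 1.72 in C57 and 1.77 in 4D(-/-), and that of actin lay between 1.62 and 1.88 with 1.83 in 4D(+/+) and 1.86 in 4D(-/-). The part of muscle, fat or RNA quality in the differences of the respiratory chain genes was not tested.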

How the data were processed

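Per the labels' protocols, 0.3 µg of total whole-lung RNA was amplified and labelled with biotin and hybridised to 1 array per strain. The authors deposited linear intensity values, made with RMA per the submitters' processing notes; the sources used here give no version, settings or genome build. RMA equalises the distributions of arrays, so a shift of all genes cannot be seen. Intensities were converted to log2. Probe sets with 1 gene symbol in the platform annotation were kept, a gene took its brightest probe set over the 5 arrays, and genes whose highest array reached 64 were counted past 1.5-fold. The number of arrays limits the precision, and with 1 pool per strain no test was made. Counting was tested on simulated data first. Members and lists were chosen with earlier results of these data known. Named were members past 1.5-fold (the 6 largest where over 10), members with 1 array 1.5-fold apart from all others, the isoform families, the least variable member of each complex and up to 4 genes per list; other names are said to be chosen later or illustrate a complex. Alternatives were other folds, floors, probe set summaries, cyclic loess (limma 3.58.1, R 4.3.3), median centring, shorter member lists and other reference arrays. The lists of ribosomal and proteasome genes were added after the data were seen.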

Additional observations from a re-analysis of the deposited data

Results flagged for a closer look

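The 2 knockout comparisons differed in direction for the respiratory chain genes. The median log2 difference was 0.10 for 4B(-/-) minus 4B(+/+) and -0.56 for 4D(-/-) minus 4D(+/+), and 63 of the 87 genes lay above 0 in the first and below 0 in the second. Lists of mitochondrial ribosomal, cytosolic ribosomal and proteasome genes, described below, also had medians above 0 in the first and below 0 in the second. Each median comes from 1 array per strain, and the difference between the knockouts was not tested.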

How the results depend on the processing

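Results depended most on the reference array. For 4D(-/-) the count past 1.5-fold was 38 against 4D(+/+) and 3 against the averaged 3 wild types (median -0.30). It was 0 against C57 (median -0.0484) and 0 against the mean of C57 and 4B(+/+) (median -0.16). The last of these references was added after the data were seen. Of all genes, 5.63%, 1.69%, 2.17% and 1.18% were past 1.5-fold in either direction against these references in turn. Against C57, Cox6a2, Cox7a1 and Cox8b turned to 0.28, 0.10 and 0.18, and Cox6a2 to 0.0115 against the mean of C57 and 4B(+/+). For 4B(-/-), C57 as reference gave 8 genes (median 0.34), where 6.1% of all genes were past 1.5-fold. For 4D(+/+), 4B(+/+) in place of C57, also added later, gave 4 genes (median 0.29), where 1.92% of all genes were. With the threshold at 2-fold the counts were 7 for the PDE4D comparison, 1 for 4B(+/+) and 3 for 4D(+/+) against C57. In these comparisons 1.72%, 1.04% and 2.01% of all genes differed by as much in either direction. For 4B(+/+), 1 of 87 is near the share of all genes. At a log2 difference of 0.32 the counts were 69, 19 and 67, with 3 for the PDE4B comparison. The shares of all genes were then 19.2%, 14.2%, 18.5% and 6.4% in either direction. Without assembly factors and tissue isoforms 0 genes were left past 1.5-fold in 4B(+/+). Log2 floors of 5 and 7, the median of probe sets, cyclic loess and median centring kept every count within 1.5 times and every median within 0.1 of the values in the text. Single genes moved with the median of probe sets: for 4D(-/-) minus 4D(+/+) Ndufs4 went from -1.01 to -0.52, no longer past 1.5-fold, Uqcrh to -0.88 and Cox6a2 to -1.23, and for 4D(+/+) minus C57 Ndufs4 went from 0.89 to 0.39. The cause of the differences between references was not tested. No paired analysis was possible because each strain has 1 array and the labels give no replicate numbers. Genes near the floor, such as Ndufb1 and Cox7c, and dim genes above it, such as Ndufaf5 and Ndufaf6, have poorly determined folds. With 1 array per strain the error of a fold could not be measured.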

Other observations

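Other large protein complexes were set beside the respiratory chain, on lists taken by symbol after the data were seen. Of 76 genes for proteins of the mitochondrial ribosome, which makes the mitochondrially encoded subunits of the chain, 20 were at least 1.5-fold lower in 4D(-/-) than in 4D(+/+), 0 were higher and 76 lay below 0, with a median log2 difference of -0.44. Mrpl42 (1.83-fold), Mrpl50 (1.78-fold) and Mrps16 (1.60-fold) were among them. In this comparison 4.53% of all genes were 1.5-fold lower and 1.1% higher. Against C57 the list stood at 0.30 in 4D(+/+), 0.30 in 4B(-/-), 0.12 in 4B(+/+) and -0.14 in 4D(-/-), and 69 of 76 genes lay above 0 in 4B(-/-) against 4B(+/+), with a median of 0.15. Cytosolic ribosomal proteins differed less, with a median of -0.11 and 1 of 43 genes lower in 4D(-/-) than in 4D(+/+), under the share of all genes. Proteasome subunits had 0 of 38 past 1.5-fold and a median of -0.27. In 4B(-/-) against 4B(+/+), 38 of 43 cytosolic ribosomal genes lay above 0 and 5 below, with a median of 0.11. Of 38 proteasome genes 31 lay above 0 and 5 below there, with a median of 0.08. The lean above 0 in that comparison, and the opposite signs of the knockout comparisons, were thus not particular to the respiratory chain.

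The mitochondrially encoded subunit ND5 of complex I, outside the selection and named after its values were seen, read 4951 in C57, 4951 in 4B(+/+), 4318 in 4B(-/-), 5850 in 4D(+/+) and 4968 in 4D(-/-). It was highest in 4D(+/+), as most nuclear-encoded subunits were, but lowest in 4B(-/-), where the nuclear-encoded genes had their second-highest median.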
